A study of Mus musculus with 6 samples.

Results

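The neuromuscular junction is the synapse between a motor nerve ending and a muscle fibre. In the gastrocnemius (Gas) RNA-seq libraries of the miR-92b knockout (M92KO) study, its messenger RNAs were followed through 10 genes chosen by name for their known roles. The choice was made with earlier results of these data known. The genes were the 5 muscle subunits of the nicotinic acetylcholine receptor (Chrna1, Chrnb1, Chrnd, Chrne and Chrng), the genes of the pathway that gathers the receptor under the nerve (Musk, Lrp4, Dok7 and Rapsn) and acetylcholinesterase (Ache). Of these 10 genes, 9 were followed among the 34714 gene symbols of the count table, and Rapsn was not analysed here. The libraries came from Gas muscle of 8-week-old mice that received no treatment. There were 3 WT libraries (C57BL/6, age-matched rather than stated to be littermates) and 3 M92KO libraries, from a strain on C57BL/6JGpt in which miR-92b is deleted in every tissue. The study worked with male mice and isolated RNA from whole muscle.

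Acetylcholine released by the nerve opens the receptor, a ring of subunits in which the gamma subunit of embryonic and denervated muscle is replaced by epsilon in innervated adult muscle. Agrin from the nerve binds LRP4, which activates the kinase MuSK from outside the cell, while DOK7 activates it from inside and rapsyn ties the receptor to the scaffold. Acetylcholinesterase, held in the synaptic basal lamina, ends the signal. Most of these genes are transcribed by the few nuclei beneath the synapse, so that in whole muscle their messages are diluted by the RNA of the rest of the fibre, and fewer cells or nuclei of a kind and less RNA in each cannot be told apart.

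The library totals were 38246649 to 48209846 counts in WT and 33160508 to 37019640 in M92KO, so every M92KO library was shallower than every WT library, and the 9 genes together received 7620 to 11240 counts in a library. A level at the floor of 3 counts corresponded to 0.0629 to 0.0916 CPM (counts scaled to library size with edgeR's TMM factors), which covers counting error only. The tissue showed its fast-fibre markers, 8 genes led by Acta1 and Myh4, at a summed 108011 to 119161 CPM in WT and 109897 to 116630 CPM in M92KO, against 13.7 to 28.7 and 12.9 to 20.5 CPM for 5 slow-fibre markers. Mir92b itself was not analysed here, so the genotype labels were not checked on the deleted gene. The first M92KO library stood apart from the others of its group, with a correlation of log2 CPM across 12905 genes of 0.983 and 0.984. Those others correlated at 0.99 with each other. With the WT libraries, in replicate order, the first M92KO library correlated at 0.987, 0.984 and 0.982. Its highest correlation was therefore with a WT library, and its lowest also with a WT library. Values without the first M92KO library are given where they matter. Across all 15788 genes tested, edgeR's quasi-likelihood test with Benjamini-Hochberg adjustment called 0 genes at an adjusted p-value under 0.05 (0% of genes). At an unadjusted p-value under 0.05 it called 1955 genes. The genes past adjustment were 322 by DESeq2 and 42 by the steps of the study's supplementary methods.

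Because the deleted gene makes a microRNA, its mature sequences (RefSeq, GRCm38.p6) are shown first, with the seed (bases 2 to 8), which pairs with targets, in capitals. The 3p arm lies at chr3:89227126-89227147 and the 5p arm at chr3:89227165-89227188, both on the minus strand.
miR-92b-3p: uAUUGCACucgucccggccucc
miR-92b-5p: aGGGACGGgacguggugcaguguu
The seed of the 3p arm is shared by 5 other mouse microRNAs (miR-25-3p, miR-32-5p, miR-363-3p, miR-367-3p and miR-92a-3p), and that of the 5p arm by 0 others in the table used. The 3′-UTR of each gene's principal transcript (GENCODE M21, GRCm38) was searched on its own strand for 8mer and 7mer matches to each seed, for the 3p arm GTGCAATA, GTGCAAT and TGCAATA, and for the 5p arm CCGTCCCA, CCGTCCC and CGTCCCA. For miR-92b-3p, 0 of the 9 genes held a match, against 12.1% of 19799 mouse 3′-UTRs. For miR-92b-5p, 1 of the 9 did, against 4.04%. It was a 7mer in Chrng (CGTCCCA), shown because it was the only match, in capitals within the stretch chr1:87212547-87212569 (plus strand). Its first 6 bases pair with bases 2 to 7 of the microRNA, and its last base, an A, lies opposite base 1. Such a match is a description of letters and not a shown site.
Chrng: cagcagtaCGTCCCAttcgtcta

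Synaptic transcription is classically linked to the N-box, a site for Ets factors such as GABP, and to E-boxes, sites for myogenic factors such as MyoD and myogenin. RefSeq windows of 250 bases before a transcription start were matched for 7 of the 9 genes, with 2 windows for Dok7. Chrnd and Lrp4 were not matched. The windows of Chrng and Ache and 1 of the 2 of Dok7 lay inside the gene as GENCODE M21 places it, so the 2 annotations differ in the start. The windows were searched on both strands for CCGGAA (the N-box), CAGCTG (the E-box of muscle genes) and the wider CANNTG, which contains CAGCTG. The N-box occurred in 1 of these genes, Chrne, with its first base 76 bases before the start (position -76), and in 12.0% of 32851 windows genome-wide. CAGCTG occurred at 2 places in Chrna1, at 2 in Chrng, at 1 in Chrne and at 1 in Musk, and in 13.0% of all windows, whereas CANNTG was in 66.2% of them. The windows of the adult and embryonic subunits and of Chrna1 are shown, since Chrne replaces Chrng in innervated muscle and Chrna1 held as many CAGCTG boxes as Chrng, with the N-box and every CANNTG in capitals. Chrne is at chr11:70619195-70619444 on the minus strand, Chrng at chr1:87205561-87205810 on the plus strand and Chrna1 at chr2:73580339-73580588 on the minus strand, all on GRCm38.p6.
Chrne: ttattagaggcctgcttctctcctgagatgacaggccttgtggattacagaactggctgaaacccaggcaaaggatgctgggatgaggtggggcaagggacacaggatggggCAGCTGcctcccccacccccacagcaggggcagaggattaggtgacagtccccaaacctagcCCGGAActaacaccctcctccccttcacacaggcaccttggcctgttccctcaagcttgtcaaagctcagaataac
Chrng: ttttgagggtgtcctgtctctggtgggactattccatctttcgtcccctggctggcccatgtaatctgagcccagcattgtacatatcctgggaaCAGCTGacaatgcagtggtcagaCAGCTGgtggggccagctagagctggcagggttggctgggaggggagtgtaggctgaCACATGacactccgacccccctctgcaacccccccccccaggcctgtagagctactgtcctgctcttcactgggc
Chrna1: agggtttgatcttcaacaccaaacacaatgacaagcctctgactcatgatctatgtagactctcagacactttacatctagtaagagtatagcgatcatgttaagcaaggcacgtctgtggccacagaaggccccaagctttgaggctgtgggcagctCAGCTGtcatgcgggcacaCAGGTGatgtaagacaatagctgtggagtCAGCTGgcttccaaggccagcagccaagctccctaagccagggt

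The comparison of M92KO with WT asked whether loss of miR-92b altered the messages of the junction in Gas muscle. Of the 9 genes, 8 passed the filter on low counts and were tested, and Chrng did not pass. After adjustment over all genes, 0 of the 8 differed between the genotypes by edgeR or by any alternative tried, where the lowest adjusted p-value of a member was 0.0906 (Chrnb1, DESeq2). At an unadjusted p-value under 0.05, 2 of the 8 were called, Chrnb1 and Musk, both higher in M92KO, beside 12.4% of all genes tested in either direction and 5.47% in the higher direction. The same 2 genes were those whose 3 M92KO values all lay above the 3 WT values, where 18.4% of all genes tested did not overlap in either direction and 8.77% lay above. Over the 8 genes tested, 5 were higher and 3 lower in M92KO, with a median log2 fold change of 0.11 (range -0.23 to 0.28), against a median that differed from 0 by less than 0.001 over all genes tested. The summed level of the 9 genes was 215 to 236 CPM in WT and 233 to 255 CPM in M92KO, and the ranges overlapped.

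**Figure D1:**
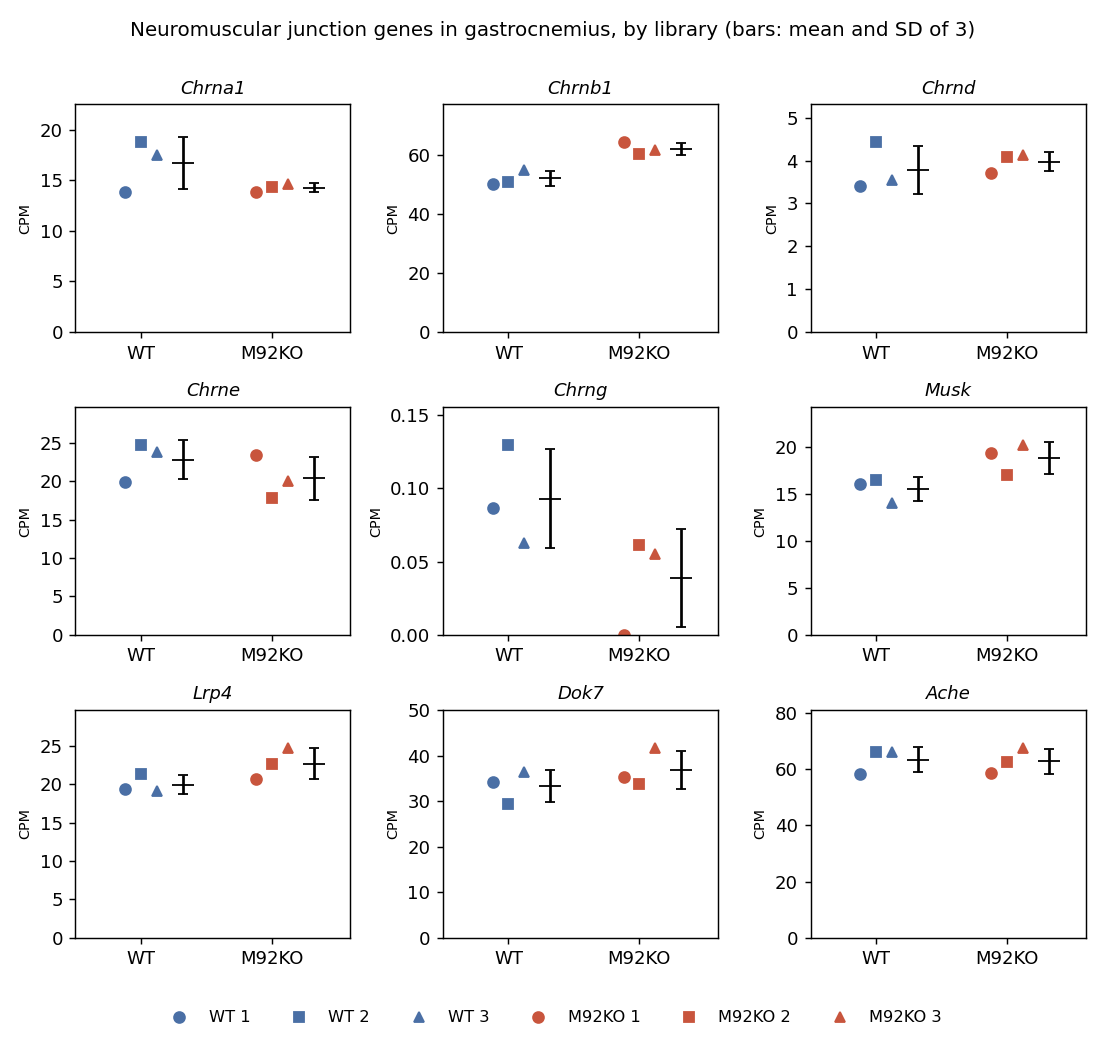
Level in CPM of each of the 9 genes in each library, with WT in blue, M92KO in red, one marker shape for each replicate number, and the mean and SD of 3 libraries beside the points. All 3 M92KO libraries lay above all 3 WT libraries for Chrnb1 (60.4 to 64.3 against 50.1 to 55.0 CPM) and Musk (16.9 to 20.2 against 14.1 to 16.4 CPM), and Chrng lay near 0 in every library.

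Among the receptor subunits, Chrnb1, on chr11:69784036-69795943, encodes the beta subunit that is present in both the embryonic and the adult receptor. It was measured at 50.1, 51.0 and 55.0 CPM in WT and at 64.3, 60.4 and 61.6 CPM in M92KO. Every M92KO library was above every WT library, and the gap between the groups was wider than the spread within either, 52.0 ± 2.62 CPM (SD, n = 3) against 62.1 ± 1.98 CPM. The level was 1.19-fold higher in M92KO (95% interval 1.07 to 1.33), a log2 fold change of 0.25 ± 0.067 (SE), with an adjusted p-value of 0.214 by edgeR. The estimate was 0.23 to 0.30 when single libraries were omitted, and the unadjusted p-value stayed under 0.05 in all 6 of these fits and in 8 of 8 other settings. The exact permutation test gave 0.1, the smallest two-sided p-value that 3 against 3 libraries allow.

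Chrna1, on chr2:73563215-73580338, encodes the alpha subunit, which carries most of the acetylcholine binding site and occurs in 2 copies in each receptor. Its levels were 13.8, 18.8 and 17.6 CPM in WT and 13.9, 14.3 and 14.7 CPM in M92KO. The WT values were widely spread and the first of them lay below all M92KO values, so the groups overlapped. The log2 fold change was -0.23 ± 0.12 (95% interval -0.50 to 0.05, adjusted p-value 0.504 by edgeR). It was -0.35 without the first WT library, the only one of these fits in which it was called at an unadjusted p-value, and -0.14 without the second.

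Chrne, on chr11:70614883-70619216, encodes the adult epsilon subunit. Its levels were 19.9, 24.7 and 23.8 CPM in WT and 23.4, 17.8 and 19.995 CPM in M92KO. The groups overlapped, with the lowest value in the second M92KO library and the highest in the second WT library. The log2 fold change was -0.16 ± 0.12 (95% interval -0.44 to 0.12, adjusted p-value 0.658 by edgeR), and -0.27 without the first M92KO library, the only one of the fits with a library left out in which its unadjusted p-value was under 0.05. Without the second WT library it was -0.10 and without the second M92KO library -0.07. Chrnd, on chr1:87190607-87200070, encodes the delta subunit and was measured at 3.40, 4.43 and 3.54 CPM in WT and at 3.71, 4.09 and 4.13 CPM in M92KO. The groups overlapped here too, with WT libraries at both ends, and the log2 fold change of 0.07 ± 0.15 had an interval of -0.28 to 0.42 (adjusted p-value 0.892 by edgeR) and a range of 0.00 to 0.20 with single libraries omitted.

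Chrng, the embryonic gamma subunit next to Chrnd on chr1:87204657-87212694, was close to undetected. It had 4, 5 and 3 counts in WT and 0, 2 and 2 in M92KO, so every M92KO library was below the floor of 3 counts and the WT libraries were at or just above it. Summed over libraries and scaled to their size, M92KO had 0.426 times the WT level, with an exact 95% interval of 0.10 to 1.40 that covers counting error only, so a difference was not detectable at this depth. The adult subunit exceeded the embryonic one in both genotypes. Per transcript length, Chrne was 438 times Chrng in WT (95% interval 250 to 849) and 927 times in M92KO (362 to 3405, resting on 4 Chrng counts), and these intervals overlapped.

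In the clustering pathway, Musk, on chr4:58285960-58374303, encodes the receptor kinase at the centre of postsynaptic assembly. Its levels were 16.0, 16.4 and 14.1 CPM in WT and 19.3, 16.9 and 20.2 CPM in M92KO. The groups did not overlap, but the second M92KO library lay only just above the second WT library. The level was 1.21-fold higher in M92KO (95% interval 1.03 to 1.43), a log2 fold change of 0.28 ± 0.10 with an adjusted p-value of 0.335 by edgeR. Omitting single libraries moved the estimate between 0.21 and 0.35, and the unadjusted p-value was under 0.05 in 4 of these 6 fits, not without the third WT library (0.21) or the third M92KO library (0.23).

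Lrp4, on chr2:91457511-91513779, encodes the agrin receptor of the fibre. It was measured at 19.3, 21.4 and 19.1 CPM in WT and at 20.6, 22.7 and 24.7 CPM in M92KO. A single pair overlapped, the first M92KO library lying below the second WT library. The log2 fold change was 0.19 ± 0.093 (95% interval -0.03 to 0.40, adjusted p-value 0.472 by edgeR), and 0.25 without the first M92KO library, the only one of the 6 fits with a library left out in which its unadjusted p-value was under 0.05. Dok7, on chr5:35056766-35087839, encodes the cytoplasmic activator of MuSK and had 34.3, 29.5 and 36.4 CPM in WT against 35.4, 33.8 and 41.7 CPM in M92KO. The values overlapped, with a log2 fold change of 0.15 ± 0.11 (95% interval -0.10 to 0.39, adjusted p-value 0.639 by edgeR). It dropped to 0.05 without the third M92KO library and to 0.06 without the second WT library.

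Ache, on chr5:137287519-137294466, encodes acetylcholinesterase. It was measured at 58.2, 66.2 and 66.0 CPM in WT and at 58.6, 62.6 and 67.5 CPM in M92KO. The groups lay over each other, with a log2 fold change of -0.01 ± 0.082 and an interval of -0.20 to 0.17 (adjusted p-value 0.968 by edgeR). Its sign turned with some single libraries left out, over a range of -0.07 to 0.04. Ache was the only member whose exons overlap another annotated gene, Gm42456 on the opposite strand, and whether the counting used strand is not given in the sources used here.

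**Figure D2:**
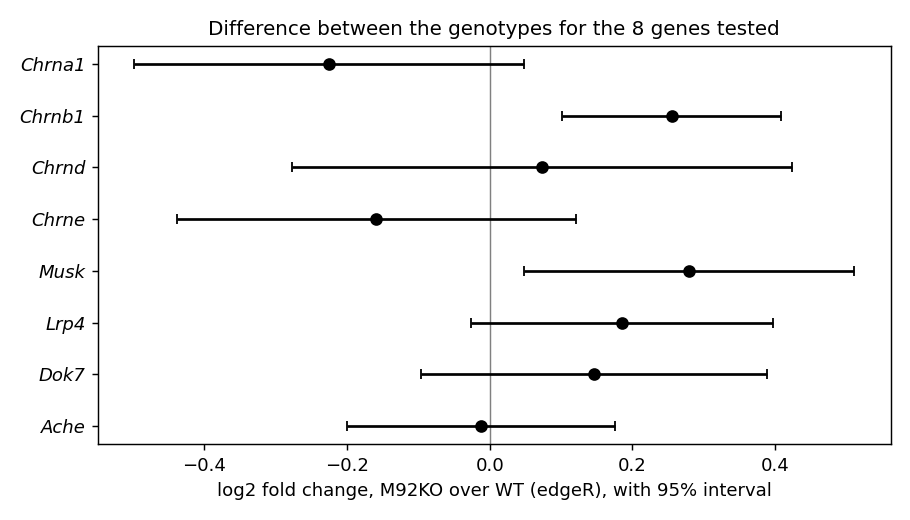
Log2 fold change of M92KO over WT by edgeR for the 8 genes tested, each point with its 95% interval. The intervals of Chrnb1 (0.10 to 0.41) and Musk (0.05 to 0.51) lay above 0 and the other 6 crossed it, before any adjustment for the number of genes tested.

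To compare levels between genes, CPM was divided by the length of the principal transcript in kilobases. In WT, Ache (29.0 ± 2.09 CPM per kb) and Chrnb1 (24.2 ± 1.21) were highest, then Chrne (14.3 ± 1.6), Dok7 (12.0 ± 1.27), Musk (4.63 ± 0.377), Chrna1 (3.81 ± 0.587), Lrp4 (2.51 ± 0.156), Chrnd (1.30 ± 0.191) and Chrng (0.0334 ± 0.0121). Neighbours whose WT values overlapped were Chrne with Dok7 and Musk with Chrna1, and the other neighbours did not overlap. In M92KO, Chrnb1 (28.8 ± 0.918) and Ache (28.8 ± 2.05) overlapped, as did Dok7 (13.3 ± 1.5) and Chrne (12.8 ± 1.78), whereas Musk (5.62 ± 0.496) and Chrna1 (3.26 ± 0.0914) did not. The order of the remaining genes was the one found in WT. By this measure the message for the alpha subunit was lower than that of the beta and epsilon subunits in both genotypes. The order rests on annotated lengths, and which transcripts this muscle uses was not checked.

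**Figure D3:**
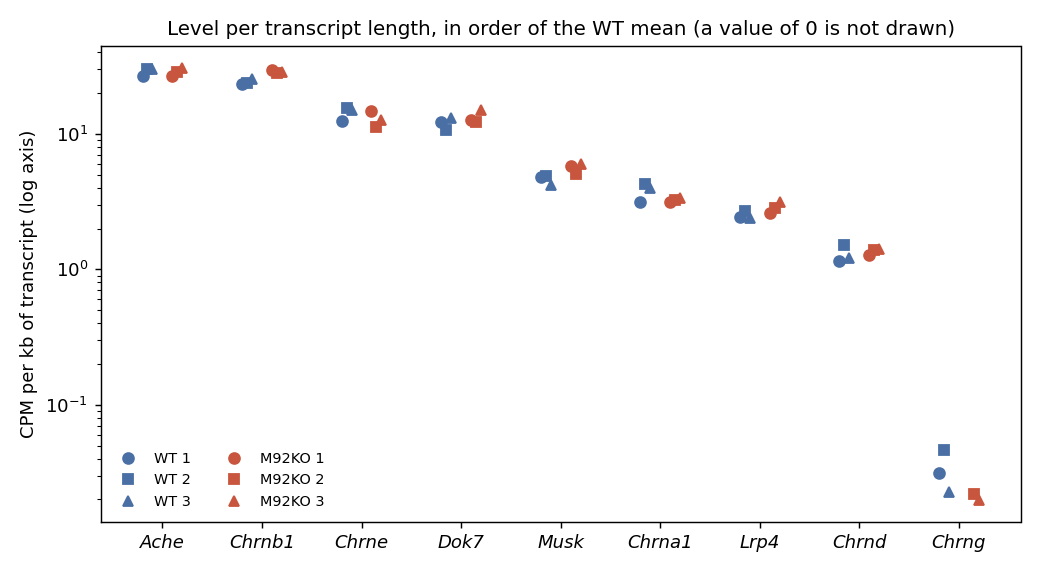
Level of the 9 genes in CPM per kilobase of transcript, on a log axis, in the order of the WT mean, with one point for each library. The genes ran from Ache and Chrnb1 above 20 CPM per kb down to Chrng below 0.05, and the first M92KO library had 0 counts of Chrng and is not drawn there.

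The subunits were also compared with each other within a library, through the 6 ratios of the 4 subunits tested, a comparison added after the values had been seen. The ratio of Chrnb1 to Chrna1 per length was 7.38, 5.53 and 6.38 in WT and 9.42, 8.58 and 8.54 in M92KO. All M92KO ratios lay above all WT ratios, 1.39-fold higher on average, and the exact permutation p-value was 0.1, or 0.2 after Benjamini-Hochberg adjustment over the 6 ratios. The ratio of Chrnd to Chrna1 was also non-overlapping, 0.302 to 0.368 in WT against 0.401 to 0.428 in M92KO (1.23-fold higher, exact permutation p-value 0.1, adjusted 0.2). The ratio of Chrne to Chrnb1 lay lower in M92KO, 0.399 to 0.493 against 0.537 to 0.656, a ratio of 0.748 between the groups (exact permutation p-value 0.1, adjusted 0.2). For Chrne to Chrna1, Chrnd to Chrnb1 and Chrne to Chrnd the groups overlapped. Since 0.1 is the smallest p-value that the design allows, none of the 6 ratios could pass the 0.05 threshold. The 6 ratios were built from the same 4 genes and are not separate results. How often ratios of other genes were non-overlapping was not computed. Even where a ratio differs between groups, it does not show which message of the pair has changed.

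**Figure D4:**
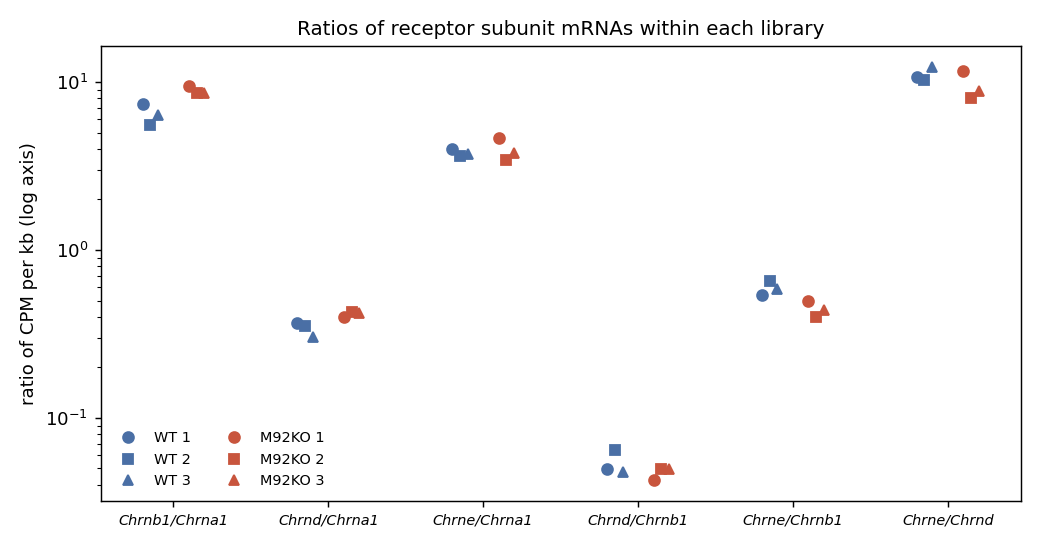
Ratio of receptor subunit levels (CPM per kb) within each library, on a log axis, with WT in blue and M92KO in red. The groups were apart for Chrnb1 over Chrna1 (8.54 to 9.42 in M92KO against 5.53 to 7.38 in WT), Chrnd over Chrna1 and Chrne over Chrnb1, and overlapped for the other 3 ratios.

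The other genes of the junction were examined in 8 lists, in which 0 genes passed adjustment by edgeR and unadjusted calls are set beside 5.47% higher and 6.92% lower among all genes tested. Estimates were above 0 for 7891 and below 0 for 7897 of these 15788 genes. In agrin and MuSK signalling, 0 of 17 genes were called higher and 2 lower, with a median log2 fold change of -0.05. The 2 were the adaptor Crk, which binds DOK7 (-0.20, adjusted p-value 0.401 by edgeR), and the kinase Abl1 (-0.15, 0.396). Crk was at 125 to 132 CPM in WT and 97.99 to 120 CPM in M92KO, and neither gene overlapped between the groups. Crk was -0.11 without the first M92KO library and was called only when the second (-0.24) or the third M92KO library (-0.25) was omitted, and Abl1 only without the first (-0.19). Of the 8 other settings, Abl1 was called in 3. It was not called by DESeq2's Wald test, with the replicate block, without the filter on low counts or with GC content and length offsets. Crk was called in 6 of these 8, and not with the replicate block alone or with DESeq2 size factors in edgeR. Agrn, which encodes agrin, had a log2 fold change of 0.09 and overlapped. Of the neuregulin, ErbB and Ets factors, which act on transcription at synaptic nuclei, 10 of 12 genes were tested and 0 were called in either direction (median -0.02). The Ets subunit Gabpa, a partner of the N-box, was at 62.3, 65.8 and 63.4 CPM in WT and 58.1, 61.5 and 59.7 CPM in M92KO, all lower. However, its log2 fold change of -0.09 had an adjusted p-value of 0.601 by edgeR, and its exons overlap Atp5j on the opposite strand. Etv4, another Ets factor, was at 0.18 with overlapping groups.

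In the list of the synaptic basal lamina and cholinesterase anchors, 0 of 15 genes were called higher and 2 lower (median 0.00). These were the collagen chains Col4a4 (-0.35, adjusted p-value 0.353 by edgeR) and Col4a3 (-0.33, 0.401), which share a basal lamina network and lie next to each other on chr1. Without the second WT library Col4a4 was -0.20 and Col4a3 -0.25, neither of them called. Omitting any M92KO library also ended the call of Col4a4 (-0.37 to -0.32), and Col4a3 was called only without the third WT library (-0.42) or the first M92KO library (-0.43). Colq, the collagen tail that anchors acetylcholinesterase, had a log2 fold change of 0.02 (-0.06 to 0.11 with single libraries omitted). In the same libraries all 5 fibroblast markers had negative estimates, 2 of them called, with a summed 1373 to 1741 CPM in WT and 906 to 1290 CPM in M92KO, and the part of these cells in the collagen values was not tested. Estimates were also below 0 for 4 of 4 endothelial and 3 of 4 macrophage and leukocyte markers. They were above 0 for 4 of 4 fat cell (median 0.73), 5 of 5 red cell (median 0.66) and 3 of 4 satellite cell markers. Of the fat and red cell markers 0 were called. Of 11 genes of the postsynaptic cytoskeleton, 1 was called higher and 1 lower (median -0.12). Lmna, a nuclear lamina gene, was at 80.9, 81.1 and 80.7 CPM in WT and 89.4, 102 and 109 CPM in M92KO (log2 fold change 0.31, adjusted p-value 0.214 by edgeR). All M92KO values of Lmna were above WT but were far more spread, and without the first M92KO library the estimate was 0.39 with an adjusted p-value of 0.0157 by edgeR. Lmna lies at chr3:88480147-88509956, on the chromosome of the deleted miR-92b (3p arm at chr3:89227126-89227147). Whether the deletion or the strain acts on genes of this region was not tested. Utrn, which encodes the junctional relative of dystrophin, was at 81.4, 80.7 and 77.8 CPM in WT and 54.6, 76.3 and 61.5 CPM in M92KO (-0.32, adjusted p-value 0.328). Utrn was not called without the first or second WT library (-0.31 each) or the third M92KO library (-0.29), and ranged from -0.46 to -0.22 with single libraries omitted.

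Denervation alters a known set of muscle genes, and 17 of them outside the receptor were listed, most known as induced and Hdac9 and Dach2 as repressed, so that their directions are not to be read together. At an unadjusted p-value 1 was called higher and 3 lower, with a median of -0.10 and 11 of 17 estimates below 0. Hdac4, a deacetylase that is induced on denervation and acts upstream of Myog, was at 65.6, 65.2 and 70.2 CPM in WT and 49.6, 53.4 and 49.5 CPM in M92KO. The groups were clearly apart, with a log2 fold change of -0.40 ± 0.068 and an adjusted p-value of 0.165 by edgeR, the lowest of any gene in the 8 lists. It passed adjustment by DESeq2 (0.00115) and in edgeR without the first M92KO library (0.0315). Its relative Hdac9 (-0.32, adjusted p-value 0.360 by edgeR), known to be repressed on denervation, and the cell-cycle inhibitor Cdkn1a (-0.82, 0.336), known to be induced, were the other genes called lower, named after their values were seen. Each was called in 3 of the 6 fits with a library omitted. Hdac9 was -0.21 without the second WT library, -0.34 without the third and -0.25 without the first M92KO library, and Cdkn1a was -0.44 without the third WT library, -0.66 without the first M92KO library and -0.76 without the second, all not called. Ankrd1, a titin-associated stress protein, was the gene called higher, at 18.9, 8.54 and 8.42 CPM in WT and 14.9, 28.0 and 31.5 CPM in M92KO. The first library of each genotype went against its group for Ankrd1, and the estimate of 1.05 had an adjusted p-value of 0.313 by edgeR. It was called only without the first WT library (1.55) or the first M92KO library (1.31), and omitting any other library gave 0.84 to 0.95. Myog itself had a log2 fold change of -0.49 with an adjusted p-value of 0.643 and overlapping groups. Its sign rested on the third WT library, without which it was 0.11, and it was called without the second (-0.77).

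Assembly of the receptor depends on glycosylation enzymes, some of which are lost in congenital myasthenic syndromes, and on chaperones. The 9 genes listed were 5 enzymes of that kind (Gfpt1, Dpagt1, Alg2, Alg14 and Gmppb), the folding and trafficking factors Canx, Ric3 and Rer1, and the mitochondrial citrate carrier Slc25a1, also a myasthenic syndrome gene. Of these 9 genes 1 was called higher and 0 lower, with a median of 0.12 and 7 estimates above 0. Dpagt1, which starts N-linked glycan synthesis, was at 17.3, 17.4 and 16.7 CPM in WT and 21.1, 21.6 and 20.4 CPM in M92KO. The groups were separated by more than their spread, with a log2 fold change of 0.30 ± 0.074 and an adjusted p-value of 0.201 by edgeR. Alg14, an enzyme of the step that follows, had an estimate in the other direction, -0.26, with an adjusted p-value of 0.424, and was called without the first WT library (-0.35).

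The neuronal nicotinic and the muscarinic receptors, the relatives of the muscle receptor, were mostly too low to test. Of 16 genes 5 passed the filter, and 3 had 0 counts in every library. At an unadjusted p-value 0 of the 5 were called higher and 1 lower. Chrna2, a neuronal alpha subunit, had 26, 45 and 39 counts in WT and 11, 11 and 8 in M92KO. No M92KO library reached the lowest WT library, the log2 fold change was -1.53 ± 0.37, and the adjusted p-value was 0.193 by edgeR. These counts were few, and the 8 of the third M92KO library were below the minimum count of 10. With at least 10 counts asked of every library, Chrna2 was not tested and 0 genes of this list were called. Chrna4 had a log2 fold change of -0.65 with overlapping groups (adjusted p-value 0.570). It was called without the first M92KO library (-1.10) and was -0.34 without the second WT library and -0.38 without the second M92KO library.

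Genes of the motor nerve were mostly too low to test. Of 13 motor nerve genes 3 passed the filter, and 5 had 0 counts in every library, among them Chat, Slc18a3 and Slc5a7, the defining cholinergic genes, whose messages lie mainly in the cell bodies of the spinal cord. Stmn2, a tubulin regulator of growing axons, was called higher at an unadjusted p-value, with 4.74, 3.50 and 3.63 CPM in WT against 6.28, 6.23 and 4.52 CPM in M92KO (log2 fold change 0.52, adjusted p-value 0.324 by edgeR). The third M92KO library of Stmn2 lay below the first WT library, and the call held only when one of these was omitted (0.66 and 0.67), with 0.44 to 0.46 otherwise. Prph, an intermediate filament of peripheral neurons, was at -0.47 with overlapping groups, and at -0.08 without the first WT library, -0.83 without the third, -0.78 without the first M92KO library and -0.23 without the second. Of 7 Schwann cell markers 2 were called lower (Mbp, called in 2 of the 6 fits with a library omitted over -0.53 to -0.30, and Pmp22, in 3 over -0.31 to -0.18, named after their values were seen) and 0 higher, with a summed 93.4 to 120 CPM in WT and 91.2 to 95.7 CPM in M92KO, and what part the nerve content of the dissected muscle has in the values of the junction genes was not tested.

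**Figure D5:**
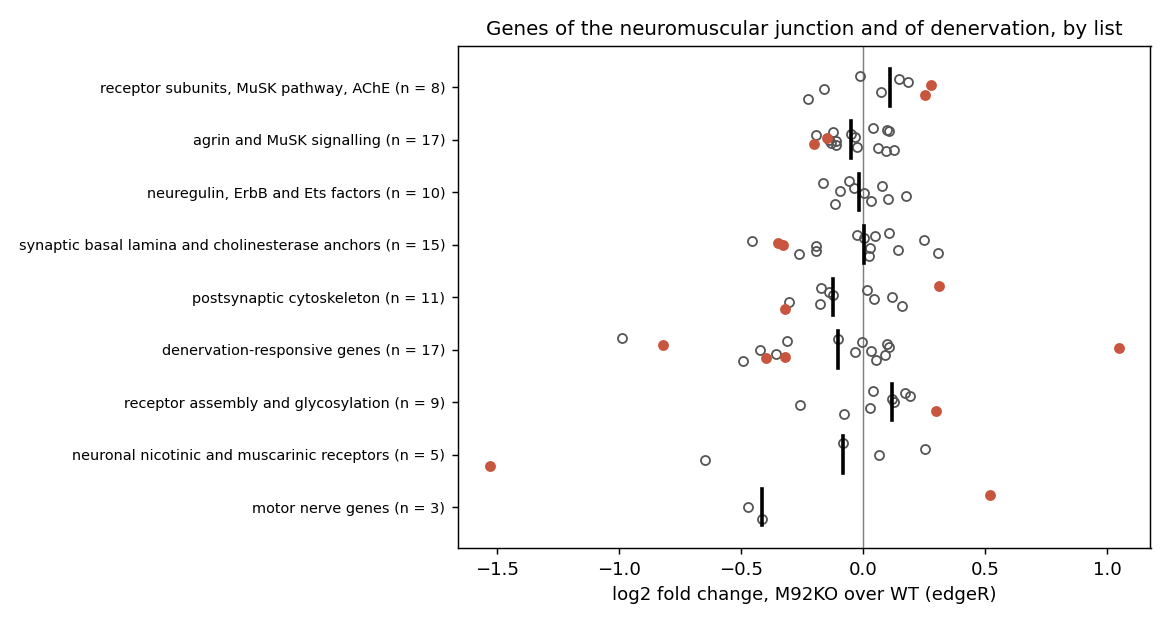
Log2 fold change of M92KO over WT (edgeR) for each tested gene of the 9 lists, with n the number tested, filled points for an unadjusted p-value under 0.05, open points for the others and a black bar at each median. Medians lay between -0.12 and 0.12 except for the 3 motor nerve genes (-0.41). The widest estimates were those of Chrna2 (-1.53, resting on few counts) and Ankrd1 (1.05).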

How the data were processed

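RNA-seq libraries of Gas muscle from 3 WT and 3 M92KO mice were compared. The authors deposited raw counts per gene symbol, without normalization. The labels name a SMARTer mRNA library kit, and the submitters' processing notes name GRCm38 and mm10. The aligner, the counter and its strand setting are not given in the sources used here. Besides Ache, exons of Gabpa, Abl1, Col4a3, Hdac4 and Cdkn1a overlap another gene on the opposite strand. Those of Colq overlap one on the same strand. Library totals ran from 33160508 to 48209846 counts.

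Counts were filtered with filterByExpr (minimum count 10, minimum total 15), which left 15788 genes, normalized with TMM and compared with edgeR 4.0.16 (quasi-likelihood test, no covariate) in R 4.3.3, with Benjamini-Hochberg adjustment over all genes tested. Intervals of fold changes are 95% intervals from the fitted standard error. Levels are CPM. Positions, lengths and 3′-UTRs are those of GENCODE M21 (GRCm38), microRNAs and promoters those of RefSeq (GRCm38.p6). The model was tested on simulated data.

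Groups and replicate numbers came from the labels, which do not say more of the origin of replicates, so p-values measure the spread between these libraries. No pair of libraries agreed within sampling noise (chi-square over degrees of freedom at least 12.8). The genes named are the 10 members and, from each of 8 lists, the 2 tested genes with the smallest unadjusted p-value. Others were named for their role (Agrn, Colq, Myog) or, in counts of 5 or fewer and among untested genes, after their values were seen. Part of a marker list is not reported here. The members and lists were chosen with earlier results of these data known. Alternatives were DESeq2 1.42.0 (size factors, Wald test), other filters, the quantile, log2 and limma 3.58.1 steps of the supplementary methods, a replicate block, each library left out and, added after seeing the data, GC content and length offsets (lowess span 0.3, 14559 genes), also with the block. Figures were made with matplotlib 3.10.9.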

Additional observations from a re-analysis of the deposited data

How the results depend on the processing

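The number of genes past adjustment, 0 in edgeR, was 322 by DESeq2's Wald test, 6 without the filter on low counts, 42 by the steps of the supplementary methods, 2 with the replicate block and 2 with GC content and length offsets and the block. With a library left out it ran from 0 to 401, with 401 without the first M92KO library, 5 without the first WT library and 1 without the second M92KO library. At an unadjusted p-value the count of 1955 ran from 1222 (without the second WT library) to 2984 (without the first M92KO library). Without the third WT library it was 1272. Of these calls 863 were higher and 1092 lower, against 1098 higher and 874 lower by the supplementary steps among the 15788 genes tested in edgeR (2287 calls over all genes those steps tested). The cause of these shifts was not tested.

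The members passed adjustment in 0 of 14 alternatives. The 2 unadjusted calls became 1 to 4 with a library left out, 3 without the first WT library (with Chrna1 added), 1 without the third WT or the third M92KO library (Chrnb1 alone) and 4 without the first M92KO library (with Chrne and Lrp4 added). Lrp4 was also called with GC content and length offsets, with and without the block. Ache, at -0.01, ranged from -0.0720 to 0.0357 with a library left out and was 0.02 without the second WT library, 0.01 without the third and 0.04 without the first M92KO library, and the other 7 members tested kept their sign in all 14. With a library left out, unadjusted calls ran from 0 to 4 for agrin and MuSK signalling, 0 to 2 for the neuregulin list, 0 to 3 for the basal lamina, 1 to 5 for the cytoskeleton, 1 to 5 for denervation, 1 to 3 for receptor assembly, 1 to 2 for neuronal receptors and 0 to 1 for motor nerve genes. The highest counts of the first 4 lists and of receptor assembly came without the first M92KO library.

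Whether the shared replicate numbers pair the libraries was not settled by the check used. Deviations of same-numbered libraries correlated at 0.114, 0.140 and 0.0573 over 12905 genes, not all above 0.1, although each library correlated best with its own number. Libraries of differing numbers correlated at -0.121 to 0.00228. The block gave 1691 unadjusted calls and changed no call of a member.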

Other observations

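Some receptor genes below the filter had uneven counts and are given as values only, chosen after they were seen and not tested. Chrna7, the neuronal alpha7 subunit, had 8, 8 and 19 counts in WT and 6, 0 and 0 in M92KO, so 2 of the 3 M92KO libraries had none. Chrna9, an alpha subunit known from sensory hair cells, had 4, 0 and 7 counts in WT and 12, 13 and 5 in M92KO, and these groups overlapped. Erbb4, a neuregulin receptor, had 11, 10 and 18 counts in WT and 8, 7 and 4 in M92KO, with every M92KO library below every WT library, although each M92KO library was also the shallower. Scaled to library size, Erbb4 was at 0.238, 0.259 and 0.377 CPM in WT and 0.230, 0.214 and 0.110 CPM in M92KO.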
